A study of Mus musculus with 8 samples.

Results

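ERRα ChIP-seq of skeletal muscle was compared between mice with a phospho-mutant ERRα (ERRα3SA) and wild-type (WT) mice, one site at a time, for the high-scoring sites of either genotype. The members were the strong peaks of the 2 muscle peak lists, meaning called intervals with a Peak Score of at least 100, the score being the unitless number that the peak caller gave each interval. There were 3786 of them, 2601 from the ERRα3SA list and 1185 from the WT list, out of 76074 muscle intervals and 126927 intervals in the 4 lists of the series. A strong ERRα3SA peak was called kept where any WT interval of any score shared at least 1 bp with it, and gained where none did. A strong WT peak was called kept or lost in the same way against the whole ERRα3SA list. The rule used score and overlap, so the description turns on what it did not use, namely annotation, distance to the transcription start site (TSS), base composition, sequence motifs, nearest genes and the liver lists.

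Both groups were male C57BL/6N mice of 2 to 3 months, littermates killed at the same zeitgeber time, and the tissue was gastrocnemius and soleus. ERRα3SA mice carry ERRα whose 3 phosphorylated serines in the amino-terminal domain cannot be phosphorylated. Each muscle library came from the chromatin of 5 mice in one pool, each liver library from 2, and the labels give 3 immunoprecipitations pooled per library, where the methods state 4 for liver, made with 1 antibody against ERRα, and an input library without antibody as control. There was 1 library per genotype and tissue, so no difference between genotypes has a replicate check and no p-value is given.

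ERRα is an orphan nuclear receptor that binds the ERR response element (ERRE), a nuclear receptor core site with a short 5′ extension, and that works with the coactivators PGC-1α and PGC-1β. In muscle it is known for the genes of mitochondrial respiration, the TCA cycle and fatty acid oxidation, and it also binds its own gene, Esrra. A change in the amount or activity of the protein can show in ChIP-seq as new sites, as lost sites or as a change in signal at sites already bound.

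The element itself could be read at gained, kept and lost sites alike, so 101-bp stretches around the ERRE nearest to the interval centre are shown for each class. They were read from the mm10 (GRCm38) genome with the ERRE in forward orientation, the capitals mark TCAAGGTCA, and the coordinates are those of the printed stretch. The first 8 are gained peaks next to genes of metabolism or muscle or with the highest score among gained peaks with an ERRE.
Fam160b1, gained, chr19:57367347-57367447, plus strand: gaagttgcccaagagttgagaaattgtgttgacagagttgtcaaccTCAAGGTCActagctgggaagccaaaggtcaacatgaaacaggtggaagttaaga
Suclg2, gained, chr6:95704751-95704851, minus strand: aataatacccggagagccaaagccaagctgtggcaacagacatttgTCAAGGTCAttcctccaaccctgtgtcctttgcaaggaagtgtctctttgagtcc
Actn3, gained, chr19:4877579-4877679, minus strand: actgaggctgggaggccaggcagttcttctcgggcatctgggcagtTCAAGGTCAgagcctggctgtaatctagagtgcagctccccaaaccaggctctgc
Ucp3, gained, chr7:100433773-100433873, minus strand: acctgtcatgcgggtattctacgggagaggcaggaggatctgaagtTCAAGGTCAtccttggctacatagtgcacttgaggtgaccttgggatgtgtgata
Ppara, gained, chr15:85771809-85771909, plus strand: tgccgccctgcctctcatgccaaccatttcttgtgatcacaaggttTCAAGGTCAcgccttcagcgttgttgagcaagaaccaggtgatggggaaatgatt
Pdhb, gained, chr14:8192713-8192813, minus strand: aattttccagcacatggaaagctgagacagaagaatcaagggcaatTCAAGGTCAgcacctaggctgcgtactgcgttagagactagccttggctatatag
Ttn, gained, chr2:76885628-76885728, minus strand: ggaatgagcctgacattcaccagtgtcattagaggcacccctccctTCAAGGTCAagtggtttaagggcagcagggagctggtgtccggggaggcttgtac
Mff, gained, chr1:82725342-82725442, minus strand: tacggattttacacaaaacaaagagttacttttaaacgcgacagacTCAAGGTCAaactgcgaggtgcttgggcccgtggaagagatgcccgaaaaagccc
The next 2 lie in copies of 1 rodent SINE, ID_B1, and allow the element's surroundings to be compared between a gained and a kept copy.
Arnt, gained in ID_B1, chr3:95451934-95452034, minus strand: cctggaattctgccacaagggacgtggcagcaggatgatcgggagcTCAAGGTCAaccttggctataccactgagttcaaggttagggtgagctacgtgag
0610039H22Rik, kept in ID_B1, chr11:88639376-88639476, minus strand: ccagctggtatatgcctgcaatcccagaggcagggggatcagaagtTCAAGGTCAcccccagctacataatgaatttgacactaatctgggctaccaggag
The following are kept sites of high score, Pld1 and Pdgfa, which hold further copies of the element in lower case, and the 1 lost peak with an ERRE in its central 300 bp.
Pld1, kept, chr3:28114014-28114114, plus strand: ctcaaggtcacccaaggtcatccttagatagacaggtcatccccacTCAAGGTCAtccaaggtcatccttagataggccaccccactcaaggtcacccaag
Pdgfa, kept, chr5:138974979-138975079, plus strand: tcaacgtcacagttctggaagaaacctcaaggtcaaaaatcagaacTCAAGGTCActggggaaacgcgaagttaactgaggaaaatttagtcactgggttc
Gm21944, lost, chr8:20823550-20823650, plus strand: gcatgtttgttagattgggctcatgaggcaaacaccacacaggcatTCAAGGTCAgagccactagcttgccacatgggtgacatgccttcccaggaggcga

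Most strong muscle sites were found in both genotypes, and the unmatched ones were mainly on the mutant side. Of the 2601 strong ERRα3SA peaks, 2102 were kept and 499 were gained (19.2%; 95% Wilson interval 17.7–20.7%). Of the 1185 strong WT peaks, 1160 were kept and 25 were lost (2.11%; 1.43–3.10%). All such intervals cover counting error only, the lists give no read counts, and the depth behind a score is unknown. Among intervals of any score, 87.1% of the 50647 in the ERRα3SA list and 74.3% of the 25427 in the WT list had no partner, so a strong peak went unmatched far less often than a weak one in either list. The ERRα3SA list was the longer one, which gives a WT peak more intervals to meet.

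The gained share fell with score. It was 33.3% (378 of 1135) at scores of 100–149, 15.8% at 150–199, 8.30% at 200–299, 3.77% at 300–499 and 2.36% (7 of 297) at 500 or more. The lost share was 4.44% (21 of 473) at 100–149 and 1.76% (4 of 227) at 150–199, and 0 of 485 WT peaks of at least 200 were lost, which allows a share of up to 0.619%. Across the threshold, 33.7% (31 of 92) of ERRα3SA peaks scoring 95–99 and 44.8% (108 of 241) of those scoring 100–104 had no partner, and 8.53% (11 of 129) and 6.45% (2 of 31) of the WT peaks in the same ranges. With the same number of intervals taken from the top of each list, and the 1185 highest of each called strong, 6.08% of the ERRα3SA peaks were gained and 2.70% of the WT peaks were lost.

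**Figure D1:**
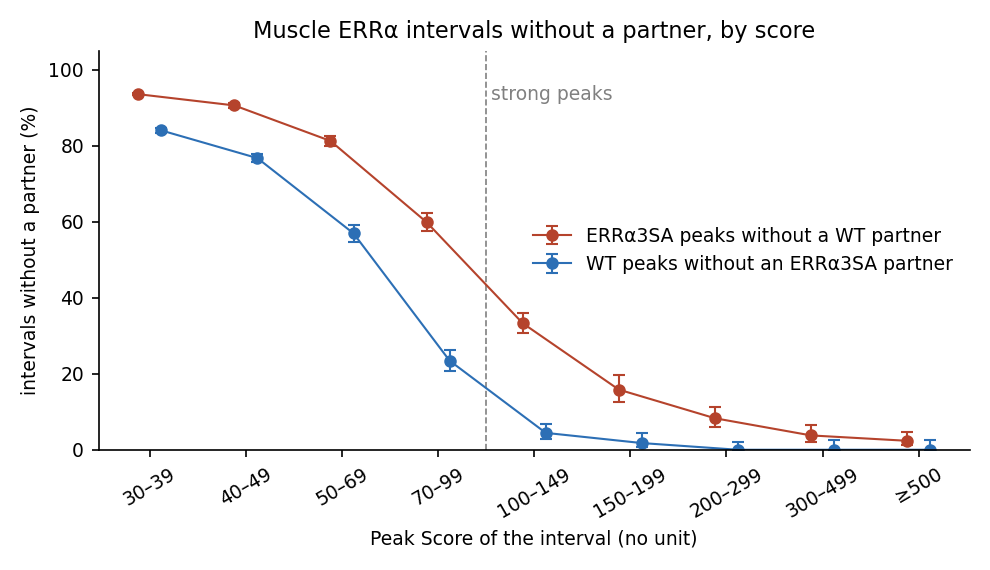
Share of muscle ERRα intervals without a partner in the other genotype (y axis, %) by Peak Score (x axis, no unit), with 95% Wilson intervals and the strong peaks to the right of the dashed line. Both curves fall with score, from 93.6% at scores of 30–39 to 2.36% at 500 or more for ERRα3SA and from 84.0% to 0 of 153 for WT.

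Unmatched peaks were not always far from a site of the other genotype. The median gap from a gained peak to the nearest WT interval was 13679 bp, with 55 of 499 (11.0%) within 1000 bp and 210 (42.1%) within 10000 bp. For the lost peaks the median gap was 2559 bp, with 7 of 25 (28%) within 1000 bp. The shortest gap of a lost peak was 131 bp, at Eef1a1 (157). Another short one was at Pdgfa, which encodes a platelet-derived growth factor chain: a lost interval with a score of 108 lay 174 bp from the end of an ERRα3SA interval whose score was 3388 and which kept its WT partner of 2206.

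The scores of kept pairs are given as a description, since the rule used them. Of the 2102 kept ERRα3SA peaks 1061 had a best WT partner below 100, with median scores of 139 and 62, and these score higher in ERRα3SA by construction. For the other 1041 both scores were at least 100, with medians of 310 in ERRα3SA and 190 in WT. Of these, 854 (82.0%) scored higher in ERRα3SA, 184 lower and 3 the same, at a median ratio of 1.51. By rank within each list, only 409 of the 1041 (39.29%) stood higher in the ERRα3SA list, which is the longer one. Of the 1160 kept WT peaks, chosen by the WT score, 859 scored below their best ERRα3SA partner, 298 above and 3 the same, and the median ratio of WT to ERRα3SA was 0.699. Whether the score follows signal or significance is not given in the sources used here, so these ratios are not ratios of bound chromatin. The scores were not normalised between the libraries, so a difference in occupancy and one in depth or enrichment cannot be told apart from them.

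The highest kept sites were the same in both lists for the most part. Capn2, which encodes a calpain protease, had scores of 13325 in ERRα3SA and 8828 in WT at an intron 2 interval, and Pld1, a phospholipase gene, had 13076 and 8350 in intron 22. Ly6c2 had 5937 and 4707, and Zfp27, a zinc finger gene, had 4556 and 3525 at its promoter. Aldoa, the muscle aldolase of glycolysis, had 4876 and 3988, and Sdhb, the iron-sulfur subunit of complex II, had 3240 and 2867. At Esrra a single ERRα3SA interval of 4101 bp (score 5343) met 2 WT intervals, with scores of 3342 at the promoter and 1544 in exon 2. An interval in intron 6 of an Esrra transcript, named for Mir6990, went the other way, with 1158 in ERRα3SA and 2055 in WT. The intervals named for Axin2 (7236 and 3225), Rn45s (5469 and 4222), Filip1l (4189 and 4119) and Pex2 (4114 and 2684) lay in ribosomal RNA sequence, which has many near-identical copies. Leaving aside the exon 2 and Mir6990 intervals of Esrra, all of these sites were also called in both liver lists. The exon 2 interval met no WT liver interval, and the Mir6990 interval met none of either genotype.

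**Figure D2:**
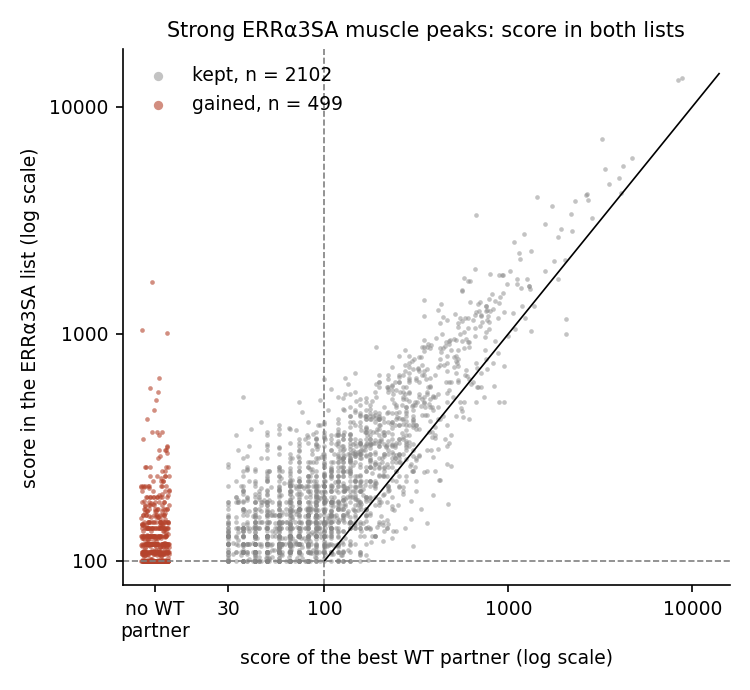
Score of each strong ERRα3SA muscle peak (y axis, log scale) against the score of its best WT partner (x axis, log scale), with the 499 gained peaks, which have none, in a column at the left, spread sideways for legibility. The solid line marks equal scores and the dashed lines a score of 100, and of the 1041 kept peaks to the right of the vertical dashed line, whose partner is strong too, 854 lie above the solid line. The 1061 to its left lie above it by construction.

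Gained peaks were smaller than kept ones, which is given as a description, since the rule used score and overlap. A wider interval can share a base with a partner more easily, so width is not independent of the rule. Their median score was 119 against 187.5 and their median width 549 against 838 bp. The lost peaks had a median score of 121 and a width of 388 bp, against 178 and 779 bp for the kept WT peaks. Since the classes differ in score, promoter, repeat and ERRE shares and the liver difference are also given below for peaks of 100–149 alone. That range was chosen after the data had been seen. Distance to the TSS, CpG and GC content and the other motifs are not given for it, so those comparisons are not matched for score.

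Gained peaks were found less often at promoters than kept peaks of the same library. By the authors' annotation 25 of 499 gained peaks (5.01%) were at a promoter-TSS, compared with 270 of 2102 kept ones (12.8%), a difference of -7.84 percentage points (95% Newcombe interval -10.0 to -5.18). Among kept peaks the share was 9.24% with a weaker WT partner and 16.5% with a strong one. In the range of 100–149 the shares were 5.56% and 9.91%. None of the 25 lost peaks was at a promoter-TSS, which allows a share of up to 12%, against 182 of 1160 kept WT peaks (15.7%), and the difference of -15.7 points had an interval of -17.9 to -2.22, but was 0.122 points where a partner's centre had to lie within 300 bp. Intergenic positions took 42.7% of gained and 28.5% of kept ERRα3SA peaks (difference 14.2 points, 9.49 to 18.96), and introns 45.5% and 49.1%. Of the lost peaks 13 of 25 (52%) were intergenic and 11 (44%) in introns.

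The median distance to the nearest TSS was 20525 bp for gained and 10348 bp for kept ERRα3SA peaks, 18169 bp for lost and 7798 bp for kept WT peaks. Within 1000 bp of a TSS lay 9.42% of gained peaks, 15.9% of kept peaks with a weaker partner and 31.0% of those with a strong one, and 8% of lost against 30.1% of kept WT peaks. Beyond 50 kb the order was turned round, with 27.3% of gained, 19.8% and 15.2% of the kept ERRα3SA classes, 28% of lost and 16.4% of kept WT peaks. Within 20 kb lay 49.7% of gained and 64.0% of kept ERRα3SA peaks, a difference of -14.3 points (-19.2 to -9.50).

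**Figure D3:**
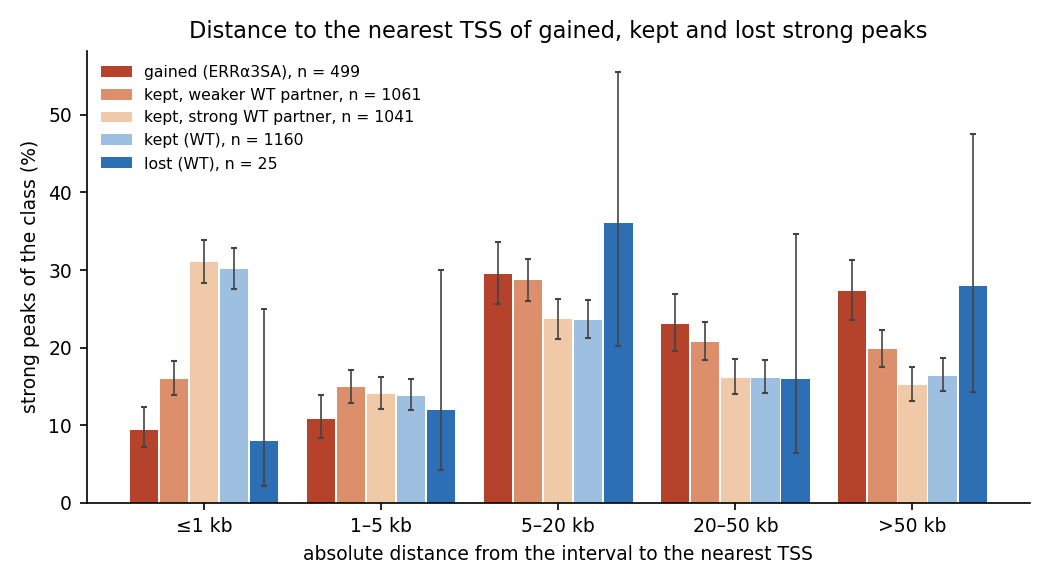
Share of each class of strong muscle peaks (y axis, %) by absolute distance to the nearest TSS (x axis, 5 distance ranges), with 95% Wilson intervals. Kept peaks with a strong WT partner and kept WT peaks lead within 1 kb (31.0% and 30.1%), gained and lost peaks beyond 50 kb (27.3% and 28%).

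Gained peaks were also poorer in CpG than kept ones. The CpG content, given in the lists as a fraction of the interval, had a median of 0.0130 in gained and 0.0165 in kept ERRα3SA peaks, and the GC content medians of 0.512 and 0.532. A CpG fraction of at least 0.05, as in CpG-rich promoters, was found for 31 of 499 gained peaks (6.21%) and 373 of 2102 kept ones (17.7%), a difference of -11.5 points (-14.0 to -8.60). CpG islands were named as the detailed annotation of 1.40% and 4.85%. That label does not count every CpG-rich peak. The WT interval named Eno1, with a CpG fraction of 0.0695, carried the promoter as its detailed annotation. For the lost peaks the CpG median was 0.0175 against 0.0184 and the GC median 0.504 against 0.536, and 3 of 25 (12%) reached 0.05 against 24.4%, a difference whose interval (-20.6 to 5.72 points) included 0.

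Repeats held more of the unmatched peaks. By the detailed annotation, the centre of 150 of 499 gained peaks (30.1%) lay in a repeat, compared with 347 of 2102 kept ones (16.5%). The difference was 13.5 points (9.36 to 17.99), and at scores of 100–149 the shares were 28.3% and 16.5%. Each peak has a single such label, and none of the 25 gained promoter peaks had a repeat as theirs. The repeat and promoter differences are thus not independent. Of the lost peaks 11 of 25 (44%) lay in repeats, against 16.6% of the kept WT peaks, a difference of 27.4 points (9.97 to 46.5). SINEs, short retrotransposon copies, made up 71 gained (14.2%) and 200 kept ERRα3SA peaks (9.51%), simple repeats 28 (5.61%) and 34 (1.62%), and LTR elements 23 (4.61%) and 50 (2.38%). Among the lost peaks 4 lay in LTR elements, 3 in simple repeats and 2 each in SINEs and LINEs. The authors kept only reads with a unique alignment, and how well such copies can be mapped was not tested.

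Of the 12 gained peaks with the highest scores 10 were centred in a repeat. Those next to 2210010C04Rik (1700, a TCCTG repeat), Mir5623 (1005), Csrp2 (642), Gm525 (576), Gpr18 (461), Tusc1 (422) and Crmp1 (370) lay in simple repeats and were called in neither liver list. The peak next to Vmn2r87 (509) lay in a repeat of the telomeric type and was called with scores of 82 in WT and 734 in ERRα3SA liver, and that of Gphn (1040) lay in ribosomal RNA sequence and was called only in WT liver (711). The peak next to Fam160b1 (557, with the ERRE printed above, liver 203 and 256) lay in a DNA transposon copy, RMER30. Outside repeats were Pgam1 (370, exon 2, liver 411 and 459) and Acacb (370, intron 1, liver 69 and 104). Acacb encodes the acetyl-CoA carboxylase of muscle mitochondria, whose product restrains fatty acid entry. None of the 12 lay at a promoter-TSS, and their nearest genes follow from the nearest TSS, which for Tusc1 lay at -147366 bp.

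The lost peaks were few, and some lay close together. The 12 highest lay next to Asmt (193), LOC105242399 (181), Erdr1 (171), Eef1a1 (157), 6820431F20Rik (147), 2700054A10Rik (146), 4931408C20Rik (143), Gm13238 (139), G530011O06Rik (138), Pms1 (137), Tmem181b-ps (131) and Rprl2 (123). Only Eef1a1, which encodes a translation elongation factor, and Asmt, which encodes the last enzyme of melatonin synthesis, had the interval within 1000 bp of their TSS. Of the 25 lost peaks, 5 were on chromosome 8, 3 each on chromosomes 1 and 5, and 2 of the 7 strong WT peaks of the Y chromosome were lost. Those next to 4930467E23Rik, 6820431F20Rik and Gm21944 started at 19932926, 20085716 and 20823350 bp of chromosome 8. Those next to Gm21190 and LOC105242399 started at 15512261 and 15596418 bp of chromosome 5. On the Y chromosome, those of Erdr1 and G530011O06Rik started at 90801420 and 90825278 bp.

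The ERRE was searched as TCAAGGTCA on both strands in the central 300 bp of each interval. It was found in 110 of 499 gained peaks (22.0%) and 365 of 2102 kept ERRα3SA peaks (17.4%), compared with 0.802% and 0.999% of windows of the same size 5 kb away and 0.423% of RefSeq promoters of mm10. In the ERRα3SA list the share was 2.65% at scores of 30–49 and 10.6% at 50–99. The difference of 4.68 points (0.874 to 8.83) turned negative in 5 of 12 alternatives, for example to -5.10 points among peaks of at least 50 and to -1.73 where a partner had to cover 50% of each interval. It stayed positive in the other 7. At scores of 100–149 the shares were 22.0% and 16.4%, a difference of 5.58 points (0.790 to 10.7). Within the gained class the element lay at a median of 52.5 bp from the centre, against 65 bp in kept peaks, and within 50 bp in 52 of 110 (47.3%) and 156 of 365 (42.7%).

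Lost peaks carried it in 1 of 25 cases (4%), next to Gm21944 and printed above, against 198 of 1160 kept WT peaks (17.1%), a difference of -13.1 points whose interval reached 2.61. The core site AGGTCA, which is part of the ERRE, was found in 61.1% of gained, 60.2% of kept ERRα3SA and 56.9% of kept WT peaks. Of the lost peaks 8 of 25 (32%) held it. The windows beside these classes held it in 21.2%, 19.5%, 18.9% and, for the lost peaks, 2 of 50 (4%, 1.10–13.5%). For lost minus kept the difference was -24.9 points (-40.0 to -5.10). A reversed ERRE, ACTGGAACT, was found in 0 of 499 gained peaks, which allows a share of up to 0.601%, and in 0.238% of kept ones.

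Other motifs set the classes apart less or in the direction of the promoters. The GC box GGGCGG was in 11.4% of gained peaks, 16.4% of kept peaks with a weaker partner and 23.7% of those with a strong one, against 5.91% of windows beside gained peaks, 5.99% beside kept peaks and 35.7% of promoters. The E-box CAGCTG, bound by myogenic factors, was in 20.2% of gained and 21.5% of kept peaks, and in 14.3% and 15.9% of their windows. Shares of the AP-1 site TGANTCA were 9.82% and 7.95%, of the MEF2 site TAAAAATAG 0.601% and 0.476%, and of the CCAAT box 27.5% and 29.3%.

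Part of the peaks with the element were centred in a repeat. Of the 110 gained peaks with an ERRE 41 (37.3%) had their centre in a repeat, and of the 365 kept ones 112 (30.7%). The ID_B1 copies alone held 29 gained peaks, 21 of them with an ERRE, and 77 kept ERRα3SA peaks, 63 with one. The ERRE was found in 46.5% (33 of 71) of gained peaks centred in SINEs, 19.8% (69 of 349) of those centred outside repeats and 1 of 28 centred in simple repeats. The element can lie anywhere in the central 300 bp, so it need not share the label of the centre. With 63 of 77 kept peaks in ID_B1 carrying it too, the element in SINEs was not particular to gained peaks.

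**Figure D4:**
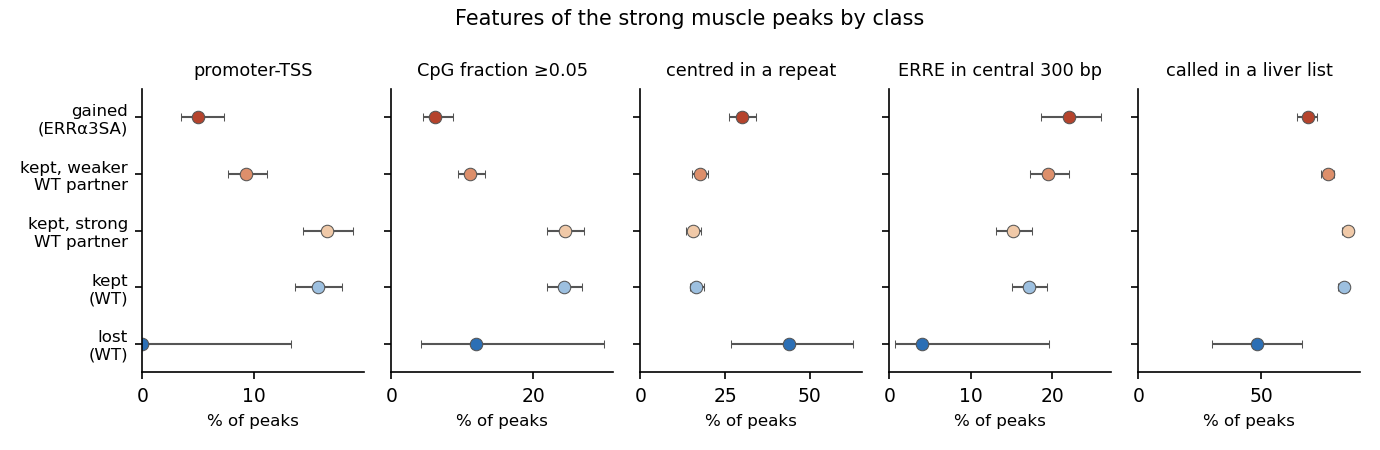
Share of the strong muscle peaks of each class (x axes, %) at a promoter-TSS, with a CpG fraction of at least 0.05, centred in a repeat, with an ERRE in the central 300 bp, and called in a liver list, with 95% Wilson intervals. Gained peaks sit below both kept ERRα3SA classes for promoters and CpG content and above them for repeats, while the ERRE shares lie between 15.2% and 22.0% in the 3 ERRα3SA classes.

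The liver lists, which the rule did not use, held most of the gained muscle sites at the limit that defined strong peaks, but not at a lower one. With a score of at least 50 in place of that limit, 1501 of 4404 gained peaks were called in liver. With a score of at least 200, 35 of 55 were. The shares that follow are for the strong peaks. A liver interval of any score and either genotype overlapped 343 of 499 gained peaks (68.7%) and 80.9% of the 2102 kept ones, a difference of -12.2 points (-16.7 to -7.91). A WT liver interval overlapped 299 gained peaks (59.9%), and 162 (32.5%) met a strong one, against 72.9% and 50.4% of kept peaks. Of the rest, 44 met an ERRα3SA liver interval only and 156 (31.3%) none. The gained peaks called in liver had an ERRE in 26.2% (90 of 343) and lay in simple repeats in 7 of 343 cases, and those not called in liver in 12.8% (20 of 156) and 21 of 156. Of the lost peaks 12 of 25 (48%) were called in liver, 5 of them in WT liver only, 6 in both genotypes and 1 in ERRα3SA liver only, against 83.4% of kept WT peaks.

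By nearest gene, 2174 genes had a strong muscle peak, and 475 of them (21.8%) had a gained one. Of these, 119 (25.1%) also had a kept strong peak, and 113 (23.8%) had no WT muscle interval of any score. Only 25 genes had a lost peak, 12 of them with a kept strong peak as well. With 3 gained peaks each stood Maf, which encodes a bZIP transcription factor, with scores of 214, 149 and 120 at 81330, 184471 and 144247 bp from its TSS, in that order, and no kept strong peak but 7 weaker WT intervals, and Gm21119, a predicted gene with 3 kept peaks. Gene names are those of the nearest TSS, at whatever distance, in the authors' annotation.

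The gene lists below are read against all 21896 protein-coding RefSeq genes, of which 8.48% had a strong muscle peak, 7.07% a kept, 1.85% a gained and 0.0776% a lost one. Cell type markers were read first, which cannot check the tissue label, since binding near a gene does not give its expression. The markers were not counted in the liver lists. Aldoa, among the 22 muscle fibre markers, scored 3753 in WT and 4360 in ERRα3SA liver. Of 22 muscle fibre markers 11 had a strong peak, among them Ckm, the muscle creatine kinase (435 in ERRα3SA, 183 in WT), Atp2a1, the fast calcium pump (488 and 244), and Mb, myoglobin (248 and 119). Of 20 hepatocyte, 10 adipocyte, 10 macrophage and blood, and 10 nerve markers none had one. The upper Wilson bounds of 16.1% for 20 markers and 27.75% for 10 lie above the background of 8.48%. Of the 20 hepatocyte markers 14 had an ERRα3SA muscle interval of some score. Endothelial markers had strong peaks at 3 of 10 (Pecam1, Kdr and Erg), fibroblast markers at 1 (Gsn) and satellite cell markers at 1 (Sdc4), and these cells are part of the tissue. A ChIP-seq peak does not give the cell it came from.

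Genes of the respiratory chain were bound mostly at kept sites. Of 36 complex I genes 20 had a strong peak, 19 of them kept, led by Ndufb4 (2532 in ERRα3SA, 1073 in WT) and Ndufs7 (1579 and 1318), both at the promoter. The 1 with a gained peak was Ndufa6, an accessory subunit (214, intron 1, 553 bp from the TSS), which had no WT muscle interval of any score but scores of 534 in WT and 426 in ERRα3SA liver. Of 44 genes of complexes II to V and cytochrome c 32 had kept strong peaks (72.7%), led by Sdhb and by Atp5b, the catalytic ATP synthase subunit (1822 and 934). The 1 gained peak there was a second site of Atp5j, an ATP synthase coupling factor (109, promoter), whose kept peak scored 475 and 413. Against the gained background of 1.85%, the shares of 2.78% and 2.27% came from 1 gene each.

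In the TCA cycle and pyruvate entry list 12 of 30 genes had a kept peak, among them Pdk2, a pyruvate dehydrogenase kinase (1254 and 669). The 2 with a gained peak (6.67%) were Suclg2, a succinyl-CoA ligase subunit (181, WT muscle intervals elsewhere up to 42, liver 278 and 173), and Pdhb, the E1 beta subunit of pyruvate dehydrogenase (129, at -19660 bp from the TSS, WT up to 51). Both gained intervals held an ERRE, printed above.

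Of 45 genes of fatty acid uptake and oxidation 14 had a kept peak, led by Fabp3, the heart and muscle fatty acid binding protein (1717 and 621), and Etfa, an electron transfer flavoprotein subunit (758 and 518), and 4 had a gained one (8.89%, 3.51–20.7%). Acsl1, which activates long-chain fatty acids, had 2 gained peaks, in intron 1 (126) and at a promoter (119), and a WT interval of at most 42. Mlycd, which degrades malonyl-CoA, had 1 in an ID_B1 copy (139). Ppara, a fatty acid sensing nuclear receptor, had 1 in intron 2 (149, liver 422 in WT and 1057 in ERRα3SA) beside 2 kept peaks of 260 and 231. Ucp3, a mitochondrial uncoupling protein of muscle, had 1 of 160 at -39233 bp from the TSS, inside a transcript of a neighbouring gene, beside a kept peak of 100. The gained intervals of Mlycd, Ppara and Ucp3 held an ERRE, and both of Acsl1 did not.

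Glycolysis, glycogen and lactate genes had kept peaks at 22 of 43, led by Aldoa and by the enolase locus, where the same site was named Eno1b in the ERRα3SA list (3832) and Eno1 in the WT list (2313). Gained peaks stood at 3 (6.98%): Pgam1, phosphoglycerate mutase (370, liver 411 and 459, beside a kept peak of 190), Pgk1, phosphoglycerate kinase (237, intron 1 at 326 bp, with no WT muscle interval), and Bsg, a partner of the lactate transporters (100). Pfkl, the liver-type phosphofructokinase, had a lost peak (102, with ERRα3SA muscle intervals elsewhere up to 49, liver 112 and 206). Of 30 mitochondrial carriers 9 had a kept peak, led by Slc25a39 (1630 and 1297) and the ATP/ADP carrier Slc25a4 (502 and 350), and 1 a gained one, Slc25a36 (225, no WT muscle interval, not called in liver).

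Of 88 genes of the mitochondrial ribosome and gene expression 10 had kept peaks, led by Mrps35 (357 and 210) and Mrpl36 (320 and 148), and none of the 88 a gained one, an upper Wilson bound of 4.18%. Of 29 dynamics and quality control genes 8 had a kept peak, led by Chchd10 (1894 and 1578) and the chaperone gene Hspa9 (925 and 459), and 3 a gained one (10.3%). These were Mfn2, which fuses mitochondria (100, promoter, liver 249 and 351), Mff, which recruits the fission machinery (100, with an ERRE at 505 bp from the TSS, liver 411 and 440), and a second site of Chchd10 (108). Mfn2 had a WT muscle interval of 33 elsewhere and Mff had none.

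Among 22 ERR, PGC-1 and coregulator genes 8 had a kept peak, led by Esrra and Med1, a Mediator subunit (699 and 323). Of these 22 genes 1 had a gained peak. Of 38 other nuclear receptors 5 had a kept peak, led by Thra (685 and 350) and Rarb (632 and 613), and 2 a gained one, Ppara and Nr4a3 (139). Of 24 clock genes 6 had kept peaks, led by Nr1d2 (627 and 290) and Bhlhe40 (531 and 388), and none had a gained one, an upper Wilson bound of 13.8%.

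The contractile genes had kept peaks at 15 of 54, led by Tmod1, tropomodulin (1460 and 904), and gained peaks at 3 (5.56%). Actn3, the Z-disc actinin of fast fibres, had a gained interval near the start of the gene (192, intron 1 at 312 bp, with an ERRE, called in ERRα3SA liver at 43 and not in WT liver) and a kept peak of 110. Ttn, titin, had 1 of 119 with an ERRE in exon 81 of 313, called in neither liver list. Myom2, an M-band protein, had 1 of 124 in ribosomal RNA sequence 462313 bp from its TSS. Calcium handling genes had kept peaks at 8 of 34, led by Nfatc2 (1596 and 1170) and Srl, sarcalumenin (1054 and 783), and a gained one at Stim1, the calcium sensor of the sarcoplasmic reticulum (191). Of 22 energy buffer genes 9 had kept peaks, led by Prkag2, an AMPK subunit (616 and 326), and Ak1, adenylate kinase (515 and 375), and Ampd1, the muscle AMP deaminase, had a gained one (144) with no WT interval.

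Of 41 myogenic and muscle transcription factors 12 had a kept peak and 3 a gained one (7.32%): Tcf4 (153, no WT interval), Foxo1 (129, beside a kept peak of 242) and Tead1 (100). The kept peaks were led by Foxo3 (370 against a WT partner of 99) and Hdac4 (349 and 400), and Hdac4 was one of the pairs with the higher score in WT. By the point value alone, the list with the highest gained share was angiogenesis, with 4 of 25 (16%, 6.40–34.7%), each with a score of 119 or lower. They were Kdr, a VEGF receptor (119), Angpt1 (106), Arnt, a partner of the hypoxia factors (100, in an ID_B1 copy, no WT interval), and a distal site of Vegfa (100), whose highest kept peak scored 788 and 326. Insulin signalling followed with 3 of 26 (11.5%, 4.003–28.98%, an interval that overlapped the one of angiogenesis), among them Irs2 (101). Akt2, the insulin-responsive AKT kinase of muscle, had a lost peak in intron 1 (108), where the highest ERRα3SA interval assigned to the gene scored 36 and the liver lists gave 221 and 280 at the site.

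Antioxidant genes had kept peaks at 4 of 27, led by Sod2, the mitochondrial superoxide dismutase (170 and 118), and Txn2, mitochondrial thioredoxin (129), and none had a gained one, an upper Wilson bound of 12.5%. Cytosolic ribosome genes had kept peaks at 3 of 76, among them Rps14 (120), and a gained one at Rplp0 (100). Leaving aside the cell type markers, the point value of the share with a kept peak was above 7.07% in every list except cytosolic ribosome. The kept shares have no interval here, and some rest on few genes, such as 4 of 27 for antioxidant genes. With 0 to 4 genes per list, the gained shares of the lists cannot be ordered within their intervals.

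**Figure D5:**
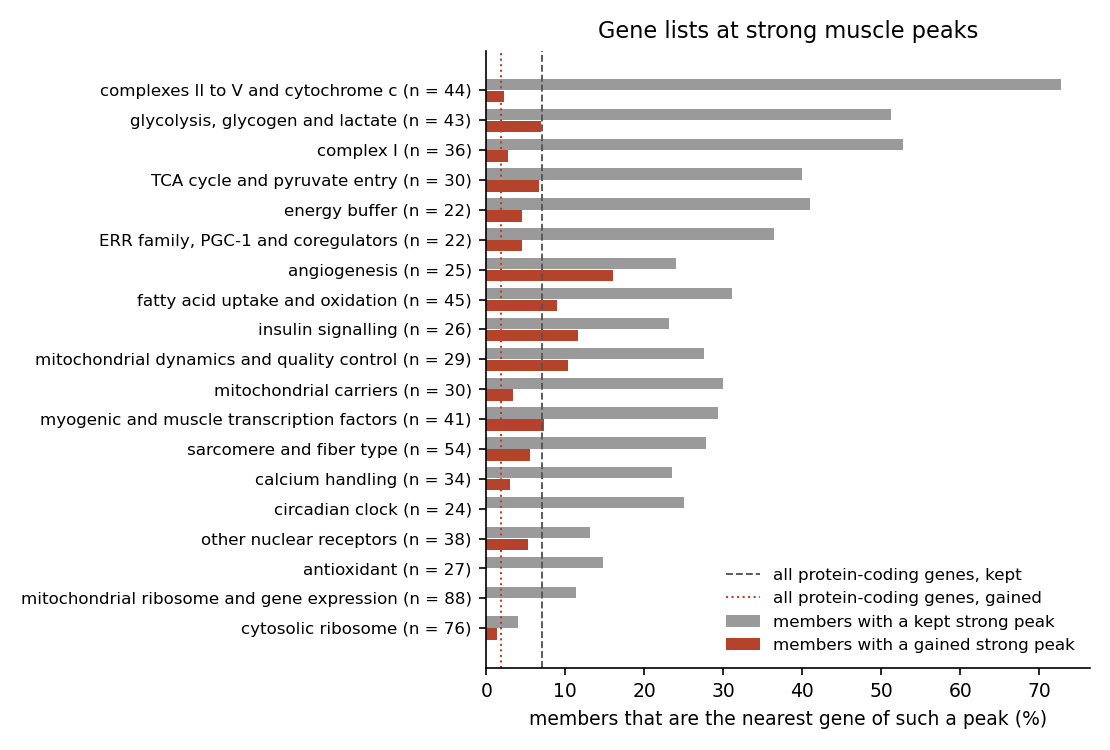
Share of the members of each gene list (y axis, with list size) that are the nearest gene of a kept (grey) or gained (red) strong muscle peak (x axis, %), with the shares of all protein-coding genes as dashed (kept, 7.07%) and dotted (gained, 1.85%) lines. Kept shares run from 3.95% in cytosolic ribosome genes to 72.7% in complexes II to V, gained shares from 0 to 16%.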

How the data were processed

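The muscle ERRα peak lists of ERRα3SA and WT mice, 1 per genotype, were compared, with the 2 liver lists as an independent readout. Per the paper's methods and the submitters' processing notes, the authors used Trimmomatic 0.36 for trimming and BWA 0.7.12 for mapping to mm10, kept uniquely aligned reads, removed duplicates with Picard 2.0.1, called peaks against input DNA with MACS2 2.1.1.20160309, and annotated them with HOMER 4.9.1. The deposited Peak Score is a score without a stated scale, was 30 or more in both muscle lists, may be a transformed false discovery rate from the peak caller rather than a signal, and is not normalised between libraries, so deeper sequencing or better enrichment raises it. The CpG and GC contents deposited by the authors are fractions of the interval from 0 to 1. The reads were not analysed here, and the lists do not give the libraries' depth. The 4 input libraries hold no values used here.

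Strong peaks (score of at least 100) of each list were matched to any interval of the other list by a shared base. Motifs were searched on both strands in the central 300 bp on GRCm38, whose GC content equalled the deposited one in all 2026 ERRα3SA and 1018 WT muscle intervals checked, and 5000 bp to either side. Shares have 95% Wilson intervals, differences Newcombe intervals, and a share of 0 the limit that 3 counts give. Python 3.11.15, numpy 2.4.6, pandas 2.3.3, matplotlib 3.10.9 and samtools 1.23.1 were used, and the matching and the intervals were tested on simulated data. Promoter sequences and protein-coding genes are from RefSeq.

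The members, lists and tests were chosen with earlier results of these data known. Named genes are Esrra, the 12 gained and the 12 lost peaks with the highest score, the 10 highest kept sites of each list, genes with 3 or more gained or 2 or more lost peaks, and for each gene list all members with a gained or lost peak (the 4 highest where more than 5) and the 2 highest kept members. Pdgfa, Gm21944, Gm21190, 4930467E23Rik, Mir6990, 0610039H22Rik and the markers were named beside this rule. Some genes and sequences that fall under it are not reported here. Alternatives changed the score limit, the matching rule, the list length, the promoter definition, the motif window and the repeats, 1 at a time.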

Additional observations from a re-analysis of the deposited data

Results flagged for a closer look

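Shares at promoters, with an ERRE, in repeats, labelled CpG island, with high CpG content and within 20 kb of a TSS were screened. This was done for gained and for lost peaks against kept ones. In 4 of these comparisons the difference between unmatched and kept strong peaks had opposite signs in muscle and in liver, the other tissue of the series. Each tissue had 1 library per genotype. The difference between the tissues was not tested. The share of gained minus kept ERRα3SA peaks with an ERRE was 4.68 percentage points in muscle (0.874 to 8.83) and -3.06 in liver (-6.54 to 0.747). The muscle value itself turned negative in 5 of 12 alternatives. For the share within 20 kb of a TSS, gained minus kept was -14.3 points in muscle (-19.2 to -9.50) and 0.394 in liver (-3.88 to 4.53), where 346 of 568 gained peaks lay that close. For lost minus kept WT peaks, the share with a CpG island as the detailed annotation was 1.88 points in muscle (2 of 25 lost peaks, -4.10 to 18.9). In liver it was -2.68 (0 of 82, -3.26 to 1.82). The share with a CpG fraction of at least 0.05 was -12.4 points in muscle (-20.6 to 5.72) and 3.76 in liver (-2.08 to 12.8). The intervals of both lost-peak features included 0 in either tissue, and those of the gained-peak features included 0 in liver.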

How the results depend on the processing

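No paired analysis was possible because each genotype has 1 library per tissue and no replicate numbers. Over 74 alternatives to 7 values, 39 stayed within the error of the value reported, 29 moved beyond it and 6 turned the direction.

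The gained share (19.18% as reported) depended on the score limit and on what counts as a partner. It was 56.1% at a score of at least 50, 5.24% at 200 or more, 33.3% at 100–149 only, 6.08% with lists of equal length, 31.8% with partner centres within 300 bp, 34.6% with a 50% reciprocal overlap, 17.1% with partners within 1000 bp, 59.98% with partners of at least 100 and 16.6% without peaks centred in repeats. The lost share (2.11%) was 33.2%, 0% and 4.44% for the same score ranges, 17.5% by centres, 17.1% by reciprocal overlap, 12.1% with strong partners and 1.43% without repeats. In each of these the gained share exceeded the lost share.

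The promoter difference of gained and kept peaks (-7.84 points) stayed negative, at -13.6 for 200 or more, -11.8 with equal lists, -3.35 by centres, -14.0 by a distance of at most 1000 bp and -4.35 at 100–149. For lost and kept WT peaks (-15.7) it was -22.1 by distance, -18.8 without repeats and turned to 0.122 by centres. The ERRE difference of gained and kept peaks (4.68) turned to -5.10 at 50 or more, -3.36 at 200 or more, -4.53 with equal lists, -1.81 by centres and -1.73 by reciprocal overlap, and the cause was not tested. It stayed positive in the other 7 alternatives, from 1.59 over whole intervals (-2.85 to 6.24) to 5.58 at 100–149. For lost and kept peaks (-13.1) it was -17.2 with intervals within 1000 bp merged and -23.4 over whole intervals. The liver difference (-12.2) was -40.8 at 50 or more, -21.5 at 200 or more, -20.8 with equal lists and -5.99 at 100–149. The range of 100–149 and all alternatives to the liver difference were chosen after the data had been seen. Lost minus kept gave no value at 200 or more, where no peak was lost.

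Without replicates or read counts, a genotype effect and a difference between 2 libraries cannot be told apart.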

Other observations

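Outside the gene lists, the gained peaks with an ERRE and the next highest scores after Fam160b1, chosen after their values were seen, included those next to Cyth1 (308, liver 221 in WT and 231 in ERRα3SA), Lrrfip1 (237, called in ERRα3SA liver at 37 only) and Ap3s2 (237, liver 390 and 504). Iscu, which encodes a scaffold of mitochondrial iron-sulfur cluster assembly, had 1 in intron 1 (214, 1195 bp from the TSS, liver 81 and 241), with the nearest WT muscle interval 1438 bp away. Of the 22 genes with at least 2 gained peaks, 11 had no kept strong peak, among them Plk2 (170 and 119), Coro2b (139 and 100) and Tmem37 (112 and 100).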
